A study of Mus musculus with 4 samples.

Results

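The genes described here are 10 members of the IRE1 and ATF6 arms of the unfolded protein response, measured by total RNA sequencing in the epidermis of newborn mice. They were chosen by name, as Ern1, Xbp1, Atf6, Hspa5, Hsp90b1, Dnajb9, Herpud1, Sdf2l1, Pdia4 and Creld2, and each was 1 of the 54752 gene identifiers in the deposited tables. The samples were 2 Skiv2l fl/fl K14-Cre pups and 2 Skiv2l ctl pups, all C57BL/6 and all at P0, the day of birth. In Skiv2l fl/fl K14-Cre pups both copies of Skiv2l are floxed and a Cre recombinase is driven constitutively by the keratin 14 promoter, so deletion is directed to keratinocytes and the other cells of the epidermis keep the gene. The Skiv2l ctl pups are littermates that may be Skiv2l fl/fl, Skiv2l fl/+ or Skiv2l fl/+ K14-Cre, and which of these each pup was is not given, so a control can carry the floxed allele or the Cre.

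Proteins that enter the endoplasmic reticulum (ER) are folded there by chaperones and by enzymes that form disulfide bonds, and when unfolded proteins accumulate the cell raises the supply of both. IRE1, a kinase and endoribonuclease of the ER membrane encoded by Ern1, cuts a short stretch out of Xbp1 mRNA, and the rejoined mRNA encodes an active transcription factor. ATF6 is carried to the Golgi and cut by the proteases MBTPS1 and MBTPS2, which frees its transcription factor domain. Active XBP1 and ATF6 raise the transcription of BiP (Hspa5), GRP94 (Hsp90b1) and other ER proteins. SKIV2L is the RNA helicase that feeds RNA into the cytoplasmic exosome, which degrades RNA fragments, and IRE1 leaves such fragments when it cuts other mRNAs at the ER.

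The cut stretch of Xbp1 is shown because the deposited values cannot resolve it. In the annotated transcript Xbp1-201 it lies in exon 4 at chr11:5524279-5524304 (GRCm38, plus strand) and is in capitals below, with 20 bases on either side.
Xbp1: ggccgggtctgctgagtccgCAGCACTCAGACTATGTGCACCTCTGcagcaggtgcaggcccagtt
The stretch was located as the only 26 bases of the coding sequence that lie between a pair of CNGCAG letters (IRE1 cuts before the last CAG of each) and whose removal lengthens the reading frame. With the stretch the frame holds 267 codons, and without it 371. None of the 4 Xbp1 transcripts in GENCODE M21 joins the bases on either side of it directly, as the cut and rejoined form would, and the tables hold 1 FPKM value (fragment counts scaled for transcript length and library size) per gene, so the level of Xbp1 given here sums both forms and does not measure IRE1 activity.

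ATF6 and XBP1 act through the ER stress response element. Of the 10 genes, 9 had a promoter in the RefSeq table of 300-base windows (GRCm38.p6), and Atf6 had none. The element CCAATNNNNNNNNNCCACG, searched on both strands, was found in 3 of the 9 promoters (Hspa5, Hsp90b1 and Creld2) and in 0.119% of all 32851 promoters. The shorter ERSE-II element, ATTGG and CCACG with 1 base between them, was found in the promoter of Herpud1 and in 0.0365% of all promoters. The core TGACGTGG bound by XBP1 was found in 0 of the 9 windows and in 0.676% of all promoters. The matches are shown in capitals, each sequence reading along its own gene's strand, because they mark the members in which a promoter element and an mRNA level can be set side by side.
Hspa5, chr2:34771995-34772073, plus strand: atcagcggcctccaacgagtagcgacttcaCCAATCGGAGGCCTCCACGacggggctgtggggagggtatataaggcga
Hsp90b1, chr10:86705503-86705686, minus strand: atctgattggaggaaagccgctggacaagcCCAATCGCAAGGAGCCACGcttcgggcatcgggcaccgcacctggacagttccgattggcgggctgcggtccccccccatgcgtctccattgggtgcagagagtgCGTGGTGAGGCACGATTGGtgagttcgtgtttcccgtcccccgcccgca
Creld2, chr15:88819490-88819568, plus strand: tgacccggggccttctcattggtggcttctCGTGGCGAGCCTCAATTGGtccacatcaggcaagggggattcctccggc
Herpud1, chr8:94386347-94386417, plus strand: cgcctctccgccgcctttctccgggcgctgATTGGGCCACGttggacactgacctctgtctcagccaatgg
The Hspa5 element ends 47 bases before the RefSeq start, which lies downstream of the start of the Hspa5 gene in GENCODE M21 given further on. Hsp90b1 holds 2 elements, and the one nearer the start, like that of Creld2, is on the opposite strand. A match to these letters is a description of the sequence, and elements with other letters were not searched.

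The tables derive from 5.84 to 6.27 aligned gigabases per library, as the quotient of coverage and FPKM shows, and the library of knockout replicate 2 had FPKM above 0.5 for 16138 genes against 17384 to 17761 in the others. Protein-coding genes that exceeded 0.5 FPKM in 1 library or more, 13609 in number, were tested with limma on log2(FPKM + 1), and a gene was called at a Benjamini-Hochberg adjusted p under 0.05. Skiv2l itself, the targeted gene, was at 19.3 and 19.1 FPKM in Skiv2l ctl pups against 10.8 and 8.55 in Skiv2l fl/fl K14-Cre pups (log2 fold change -0.92, standard error 0.12, adjusted p in limma = 0.00368). Exons of Dxo (opposite strand) and Mir6970 overlap it. The value is for the whole gene and does not measure how complete the deletion was. By Western blot, the paper reported depletion of SKIV2L protein in P0 epidermis of this genotype. Without the first or the second Skiv2l ctl library Skiv2l itself missed the threshold (limma adjusted p = 0.0562 and 0.0547). Over all tested genes the log2 fold change had a median of -0.20, which became -0.01 after scaling every library to a common median and -0.05 after quantile normalization. A gene with a fold change of 0 as deposited therefore lies above the median, and for the 10 members the values under both scalings are given where they change a direction or a call. With 2 pups per genotype, an exact two-sided permutation test of 1 gene cannot give a p below 0.333.

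In the deposited values the 10 members did not all move in 1 direction, although the only fall that was called, that of Pdia4, was not called under either scaling. Ern1, Xbp1 and Herpud1 were higher in the knockout epidermis, by 52%, 48% and 29% of the mean FPKM, and Pdia4 was lower by 24%. The remaining 6, among them Hspa5, the gene most used as a readout of the response, did not pass the threshold. Thus 4 of 10 members were called, beside 34.4% of all tested genes, 3 of them higher (8.99% of all) and 1 lower (25.4% of all). With median scaling 5 were called higher (the same 3 with Hspa5 and Dnajb9) and 0 lower, against 14.1% and 11.5% of all genes, and with quantile normalization 4 higher and 0 lower, against 12.4% and 14.1%. Without the first or the second Skiv2l ctl library, 0 members were called by limma, while 2 or 3 were higher and 1 lower at an unadjusted p under 0.05. Without the first Skiv2l fl/fl K14-Cre library 4 were called higher and without the second 2, with 1 called lower in each case. All 10 had an FPKM above 3 in every library, and the median of their log2 fold changes was 0.15.

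**Figure D1:**
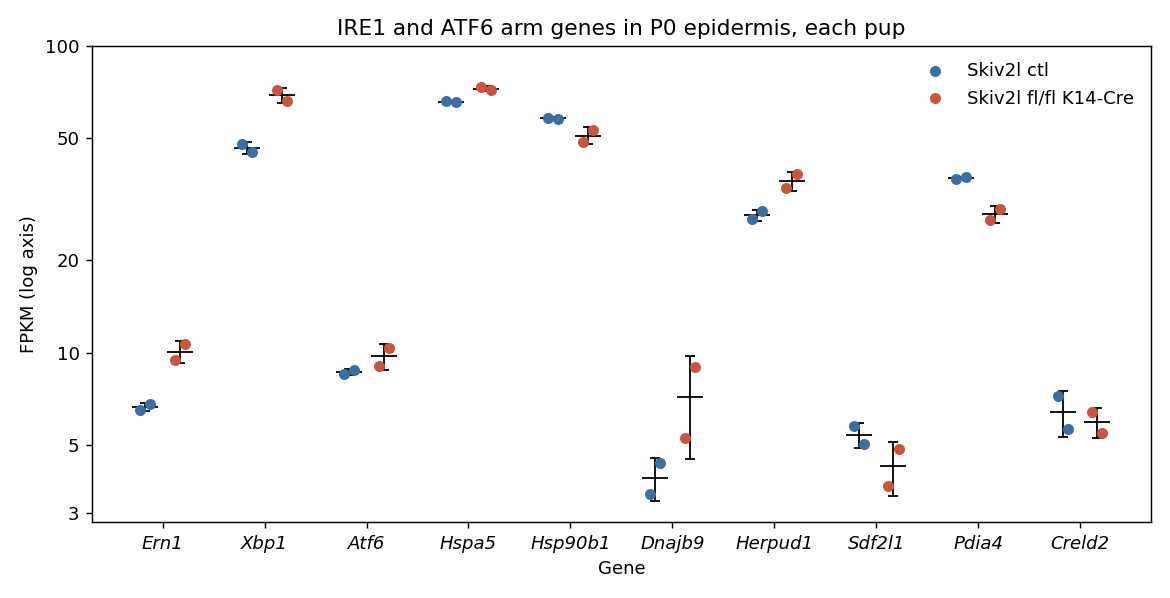
FPKM of the 10 genes in each pup (log axis), with points for the 2 Skiv2l ctl and the 2 Skiv2l fl/fl K14-Cre libraries, a horizontal mark for the mean and bars for the SD (n = 2). The 2 genotypes do not overlap in 9 of the 10 genes, with Ern1, Xbp1, Atf6, Hspa5, Dnajb9 and Herpud1 above the controls, Hsp90b1, Sdf2l1 and Pdia4 below them, and Creld2 overlapping.

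In FPKM, a level per transcript length, the members fell into an abundant and a scarce set. In Skiv2l ctl epidermis the mean FPKM was 65.9 for Hspa5, 58.1 for Hsp90b1, 46.6 for Xbp1, 37.1 for Pdia4 and 28.1 for Herpud1. It was 8.63 for Atf6, 6.65 for Ern1, 6.41 for Creld2, 5.40 for Sdf2l1 and 3.91 for Dnajb9, and in this part of the order Creld2 overlapped both Ern1 and Sdf2l1. Hspa5, at the top, ranked 667 among all tested genes by mean FPKM. In the knockout epidermis Xbp1 had passed Hsp90b1 to second place and overlapped Hspa5, and Herpud1 had passed Pdia4. Ern1 stood beside Atf6, which it overlapped, and Sdf2l1 had become the scarcest of the 10.

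Among the sensors and transcription factors, Xbp1 had the smallest adjusted p of all 10 members. Xbp1 (ENSMUSG00000020484.18, chr11:5520659-5525893, plus strand) was at 48.0 and 45.1 FPKM in Skiv2l ctl pups against 71.9 and 66.3 in Skiv2l fl/fl K14-Cre pups. Both knockout libraries lay well above both controls, and the difference exceeded the spread between pups (log2 fold change 0.56, standard error 0.09, adjusted p in limma = 0.00575). It was larger than that of 93.1% of tested genes, and with median scaling and quantile normalization it was 0.75 and 0.59. Ern1 (ENSMUSG00000020715.9, chr11:106394650-106487852, minus strand), the gene of the sensor that cuts Xbp1, was at 6.50 and 6.79 FPKM in the controls against 9.48 and 10.7 in the knockouts. The 2 genotypes did not overlap (log2 fold change 0.53, standard error 0.11, adjusted p in limma = 0.0135), and both scalings raised the value, to 0.72 and 0.71. Neither gene shares a 75-base stretch or an exon with another annotated gene.

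Atf6 (ENSMUSG00000026663.6, chr1:170704674-170867771, minus strand), the sensor of the other arm, was at 8.50 and 8.77 FPKM in the controls against 9.08 and 10.4 in the knockouts. The lower knockout lay just above the higher control, and the difference was not called (log2 fold change 0.15, standard error 0.11, adjusted p in limma = 0.296), nor was it with median scaling (0.34, limma adjusted p = 0.0705). Across the 13 alternatives its log2 fold change stayed above 0, from 0.06 to 0.34. Nonoverlapping groups were frequent in these data, at 73.5% of all tested genes (18.2% above and 55.3% below the controls), so the 9 members of 10 that did not overlap are near this background.

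Of the ER chaperones, Hspa5 (ENSMUSG00000026864.13, chr2:34771970-34777547, plus strand) encodes BiP, the Hsp70 protein that binds unfolded chains and holds the sensors inactive. Hspa5 was at 66.2 and 65.5 FPKM in the controls against 73.7 and 71.6 in the knockouts. Replicates differed by little and the genotypes did not overlap, but the difference of 10% of the mean FPKM was not called (log2 fold change 0.14, standard error 0.08, adjusted p in limma = 0.197). With median scaling it was 0.33 and was called (limma adjusted p = 0.0249), and with quantile normalization it was 0.14 and was not (adjusted p = 0.219), so the call for Hspa5 depended on how the libraries were scaled.

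Hsp90b1 (ENSMUSG00000020048.13, chr10:86690209-86705509, minus strand) encodes GRP94, the Hsp90 protein of the ER lumen. It was at 58.4 and 57.9 FPKM in the controls against 48.7 and 53.3 in the knockouts. Both knockouts lay below both controls, the difference was not called (log2 fold change -0.19, standard error 0.08, adjusted p in limma = 0.133), and it was close to the median of all genes, becoming 0.00 with median scaling. Exons of 3 annotated genes overlap Hsp90b1, among them 1810014B01Rik on the opposite strand, and 1.73% of its 75-base stretches occur in other genes.

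Sdf2l1 (ENSMUSG00000022769.9, chr16:17130138-17132383, minus strand), a luminal partner of BiP and its co-chaperones, was at 5.76 and 5.03 FPKM in the controls against 3.67 and 4.87 in the knockouts. The higher knockout was close to the lower control, and the difference was not called (log2 fold change -0.29, standard error 0.15, adjusted p in limma = 0.176). Dnajb9 (ENSMUSG00000014905.4, chr12:44205559-44210326, minus strand) encodes ERdj4, a J-domain co-chaperone of BiP and a known XBP1 target. Dnajb9 was at 3.46 and 4.36 FPKM in the controls against 5.28 and 9.02 in the knockouts. The second knockout was far above the first, and although the fold change was the largest of the 10 members it was not called (log2 fold change 0.70, standard error 0.23, adjusted p in limma = 0.0608). With median scaling (0.89, limma adjusted p = 0.0398) and with quantile normalization (0.89, limma adjusted p = 0.0376) it was called. Without the second knockout its log2 fold change was 0.36 and without the first 1.03, so this value rests largely on 1 pup. Mir5627 overlaps an exon of Dnajb9 on the opposite strand, and 2.55% of the Dnajb9 stretches occur in Gm6568.

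Of the enzymes that act on disulfide bonds, Pdia4 (ENSMUSG00000025823.9, chr6:47796141-47813430, minus strand) encodes the ER protein disulfide isomerase ERp72. It was at 36.9 and 37.4 FPKM in the controls against 27.1 and 29.5 in the knockouts. Pdia4 fell, with no overlap between the genotypes (log2 fold change -0.38, standard error 0.09, adjusted p in limma = 0.0198). The call was lost with median scaling (-0.19, limma adjusted p = 0.166) and with quantile normalization (-0.30, adjusted p = 0.0510), while the direction held in all 13 alternatives. Creld2 (ENSMUSG00000023272.4, chr15:88819646-88826683, plus strand), a secreted and ER-resident protein with disulfide isomerase activity, was at 7.20 and 5.63 FPKM in the controls against 6.43 and 5.47 in the knockouts. The values interleaved, the log2 fold change was -0.09 (standard error 0.15, adjusted p in limma = 0.655), and its sign changed with median scaling (0.10) and with quantile normalization (0.11).

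Herpud1 (ENSMUSG00000031770.16, chr8:94386438-94395377, plus strand) encodes HERP, a membrane protein that organizes the complex for ER-associated degradation of misfolded proteins. It was at 27.2 and 28.9 FPKM in the controls against 34.3 and 38.1 in the knockouts. Both knockouts were above both controls (log2 fold change 0.36, standard error 0.09, adjusted p in limma = 0.0304), and the value was 0.54 and 0.44 under the scalings. Without the second knockout it was 0.28 and was not called (limma adjusted p = 0.0788). In the deposited values Herpud1, with its ERSE-II match, was the only member with one of the searched promoter elements that was called. The 3 with the longer element (Hspa5, Hsp90b1 and Creld2) were not, although Hspa5 was called with median scaling (0.33, limma adjusted p = 0.0249). Xbp1 and Ern1, which rose, had no match in the searched windows.

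**Figure D2:**
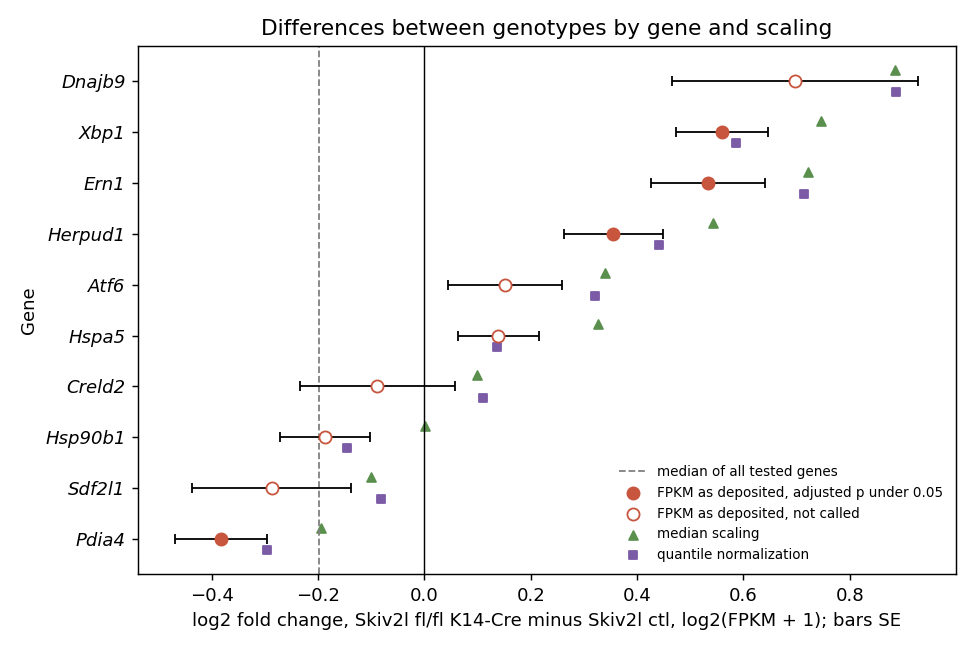
Log2 fold change of each gene, Skiv2l fl/fl K14-Cre minus Skiv2l ctl on log2(FPKM + 1), with bars for the standard error (filled circles are called by limma, open circles are not), and the same value after median scaling (triangles) and quantile normalization (squares). The dashed line is the median of all tested genes (-0.20). Dnajb9, Xbp1, Ern1 and Herpud1 lie at the top and Pdia4 at the bottom under each scaling.

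A ratio of 2 members within a library is left as it is by any constant factor on the FPKM of that library. Median scaling and quantile normalization were applied to log2(FPKM + 1), so neither leaves these ratios exactly as they are. The ratios of the deposited values show which members changed unequally. Of the 45 pairs, the ratio did not overlap between genotypes in 33, a share near the 68.2% of all pairs of tested genes for which this held. The pairs described next were picked after their values were seen and are given as a description. Ern1 relative to Xbp1 was 0.135 and 0.150 in the controls against 0.132 and 0.161 in the knockouts, which overlap. Xbp1 relative to Hspa5 went from 0.725 and 0.689 to 0.975 and 0.927, so Xbp1 gained on BiP in both knockouts. Within the chaperones and folding enzymes, Hspa5 relative to Hsp90b1 was 1.13 in each control and 1.51 and 1.34 in the knockouts. Hspa5 relative to Pdia4 went from 1.79 and 1.75 to 2.72 and 2.43. Xbp1 relative to Pdia4, a transcription factor against a folding enzyme, was 1.30 and 1.21 in the controls against 2.65 and 2.25 in the knockouts. Dnajb9 relative to Sdf2l1, both partners of BiP, went from 0.601 and 0.866 to 1.44 and 1.85.

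**Figure D3:**
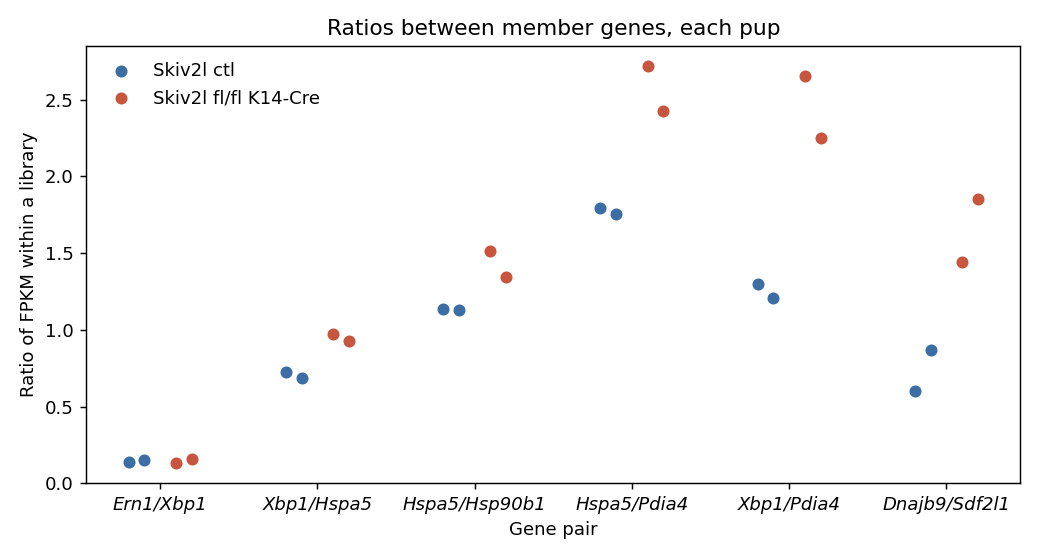
Ratio of FPKM between 2 member genes within each library (linear axis from 0), with points for the 2 Skiv2l ctl and 2 Skiv2l fl/fl K14-Cre pups. Ern1 to Xbp1 overlaps between genotypes, while Xbp1 to Hspa5, Hspa5 to Hsp90b1, Hspa5 to Pdia4, Xbp1 to Pdia4 and Dnajb9 to Sdf2l1 are higher in both knockouts.

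Around IRE1, 1 of 6 tested genes of its machinery was called higher and 1 lower (8.99% and 25.4% of all tested genes), and the median log2 fold change was -0.09 beside -0.20 for all genes. Rtcb, the RNA ligase that rejoins the cut Xbp1 mRNA, fell from 31.2 and 31.03 FPKM to 22.4 and 23.1 (log2 fold change -0.44, limma adjusted p = 0.0108). The Rtcb call was lost with median scaling (limma adjusted p = 0.0755) and kept with quantile normalization (-0.35, limma adjusted p = 0.0265). Exons of Ascl4 overlap Rtcb on the opposite strand. Map3k5, the kinase ASK1 downstream of IRE1 and TRAF2, rose from 5.79 and 5.96 to 8.26 and 8.20 (limma adjusted p = 0.0216). Ern2, the IRE1 paralog of mucosal epithelia, was under 0.1 FPKM in every library and was not tested.

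Of 10 genes of the ATF6 machinery, 0 were called higher and 4 lower by limma (median log2 fold change -0.24), beside 8.99% and 25.4% of all tested genes. With median scaling 1 was higher and 3 lower, beside 14.1% and 11.5%. Mbtps1, the protease that first cuts ATF6, fell from 25.9 and 26.7 FPKM to 17.3 and 17.1 (log2 fold change -0.58, standard error 0.08, adjusted p in limma = 0.00447). The second protease, Mbtps2, was at 5.97 and 6.01 in the controls against 5.47 and 5.66 in the knockouts and was not called, and its log2 fold change of -0.09 became 0.10 with median scaling. Nfyb, a subunit of the factor NF-Y that binds the CCAAT part of the element, fell from 8.94 and 9.18 to 5.11 and 5.05 (log2 fold change -0.73, limma adjusted p = 0.00380). Creb3l4, a membrane-bound relative of ATF6, fell from 1.57 and 1.75 to 0.610 and 0.418. These 3 falls kept their sign and their call under both scalings.

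Among 21 other chaperones and folding enzymes of the ER, 2 were called higher, 2 lower and 17 were not called (all tested genes: 8.99% and 25.4% called), and their median was -0.02. P4hb, the main protein disulfide isomerase, rose from 139 and 141 FPKM to 199 and 209 (log2 fold change 0.54, standard error 0.08, adjusted p in limma = 0.00472), the opposite direction to Pdia4 of the same family. Pdia5, at 0.516 and 0.807 in the controls against 1.40 and 1.37 in the knockouts, rose as well (limma adjusted p = 0.0408). Cnpy2, a saposin-like protein of the ER, fell from 15.7 and 21.5 to 11.7 and 10.2 (limma adjusted p = 0.0205), and the call was lost under both scalings. With median scaling the counts were 5 higher and 0 lower, beside 14.1% and 11.5% of all tested genes. They were the same with quantile normalization, beside 12.4% and 14.1%.

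Of 19 genes of ER-associated degradation, 1 was called higher and 0 lower by limma, beside 8.99% and 25.4% of all tested genes. The median was -0.06, and median scaling gave 3 and 0, beside 14.1% and 11.5% of all tested genes. The 1 called was Edem1, a lectin that directs misfolded glycoproteins to degradation and a known XBP1 target, at 9.06 and 9.99 FPKM in the controls against 13.3 and 13.7 in the knockouts (log2 fold change 0.46, limma adjusted p = 0.0161). In translocation and early transport, 3 of 21 genes passed as higher and 2 as lower, beside the same 8.99% and 25.4%. Their median was 0.01, and median scaling gave 6 and 1, beside the same 14.1% and 11.5%. Kdelr3, a receptor that returns proteins with an ER retention signal, rose from 2.24 and 2.35 to 5.71 and 4.23 (log2 fold change 0.85, limma adjusted p = 0.00961). Exons of Ddx17 overlap Kdelr3 on the opposite strand. Sec24d, a cargo subunit of COPII vesicles, rose from 7.69 and 8.54 to 14.4 and 11.7 (limma adjusted p = 0.0143). Spcs2, a signal peptidase subunit, fell from 22.3 and 25.1 to 14.97 and 13.96 (limma adjusted p = 0.00495).

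**Figure D4:**
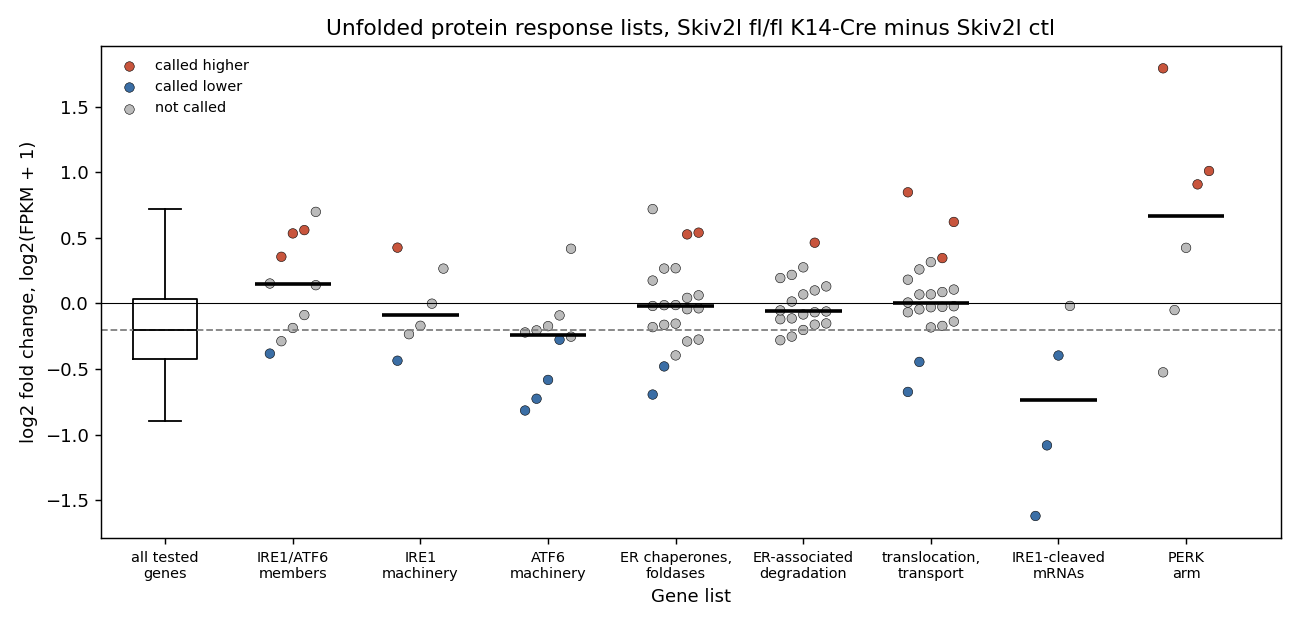
Log2 fold change, Skiv2l fl/fl K14-Cre minus Skiv2l ctl on log2(FPKM + 1), of each tested gene in 8 lists of the unfolded protein response (points, colored by limma call, with a bar at the list's median) beside a box of all 13609 tested genes (quartiles, whiskers from percentile 5 to 95). List medians run from -0.74 for mRNAs cut by IRE1 to 0.67 for the PERK arm, and the dashed line marks the median of all genes at -0.20.

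Of 5 mRNAs known to be cut by IRE1 outside Xbp1, 4 were tested and 3 were called lower, beside 25.4% of all tested genes, and with median scaling 2 were, beside 11.5%. Scara3, a scavenger receptor, fell from 7.36 and 7.85 FPKM to 3.15 and 2.99 (log2 fold change -1.08, standard error 0.11, adjusted p in limma = 0.00141). Col6a1, a collagen chain, fell from 3.94 and 4.87 to 0.750 and 0.758 (log2 fold change -1.62, limma adjusted p = 0.000889). Bloc1s1, the most used of these substrates, fell from 12.8 and 13.5 to 10.1 and 9.34 (log2 fold change -0.40, limma adjusted p = 0.0258), but the call was lost under both scalings, and 41.8% of its stretches occur in the overlapping gene Rdh5. Hgsnat, at 6.42 and 7.16 in the controls against 6.997 and 6.37 in the knockouts, was not called. Fibroblasts also express Col6a1. Of 6 fibroblast markers 5 were tested and 2 called lower (Dcn and Col1a2), beside 25.4% of all tested genes. The summed level of the 6 was 61.3 and 69.0 FPKM in the controls against 21.9 and 25.0 in the knockouts. Nearly all of this sum was Dcn, at 57.0 and 62.7 FPKM in the controls against 16.9 and 21.4 in the knockouts. The Col1a2 call was lost with median scaling and quantile normalization (limma adjusted p = 0.0986 and 0.0921). Col1a1 and Col3a1 overlapped between the genotypes and were not called, with log2 fold changes of 0.12 and -0.11. Pdgfra was at 0.299 and 0.250 in the controls against 0.789 and 0.668 in the knockouts. It was not called as deposited (limma adjusted p = 0.0601) and was called higher under both scalings. Pdgfra exceeded the filter of 0.5 FPKM only in the knockouts, its higher group, so these calls are a description only. What part the fibroblast marker values have in the Col6a1 value was not tested. In a bulk sample fewer cells of a type and less RNA per cell cannot be told apart.

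In the remaining arm, that of the kinase PERK, Eif2ak3 (the gene of PERK) was at 5.80 and 6.36 FPKM in the controls against 5.55 and 6.13 in the knockouts and was not called, and the sign of its fold change differed between the deposited values (-0.05) and median scaling (0.14). Atf4, the transcription factor made when PERK or related kinases slow translation, rose from 45.6 and 43.2 to 87.1 and 81.4 (log2 fold change 0.91, standard error 0.08, adjusted p in limma = 0.00110). Trib3 and Ppp1r15a, both known ATF4 targets, rose from 12.7 and 9.96 to 37.5 and 45.8 and from 11.5 and 9.71 to 18.1 and 27.4. Chac1, another known ATF4 target, was at 8.57 and 7.53 in the controls against 8.07 and 3.35 in the knockouts and was not called (log2 fold change -0.52, limma adjusted p = 0.240). Ddit3, which encodes CHOP, was at 6.49 and 6.70 in the controls against 10.4 and 8.08 in the knockouts and was not called (limma adjusted p = 0.0551), although with median scaling it was (0.61, limma adjusted p = 0.0184). Exons of Mars and Gm4189 overlap Ddit3 on the opposite strand. In all, 3 of 6 genes of the PERK arm list were higher and 0 lower by limma, beside 8.99% and 25.4% of all tested genes, with a median of 0.67. The 3 were Atf4 and its known targets Trib3 and Ppp1r15a, which are not particular to PERK. With median scaling 4 were higher and 0 lower, beside 14.1% and 11.5%. Of the genes named from the lists, Rtcb, Map3k5, Mbtps1, Nfyb, Creb3l4, P4hb, Pdia5, Edem1, Kdelr3, Sec24d, Bloc1s1 and Ppp1r15a lost their call when the first Skiv2l ctl library was left out and also when the second was (limma adjusted p from 0.0511 for Creb3l4 to 0.172 for Bloc1s1), and Spcs2 and Cnpy2 without the second. Pdia5 also lost it when either knockout was left out, and Cnpy2 and Bloc1s1 without the second. Scara3, Col6a1, Atf4 and Trib3 were called whichever library was left out.

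Of genes outside the list of 10, those whose log2(FPKM + 1) profile over the 4 libraries lay nearest to that of Hspa5 were Prrc2c (Euclidean distance 0.0133 after centering), Ahnak2 (0.0145) and Ndfip2 (0.0204). Those nearest to Xbp1 were Dysf (0.0156), Ehbp1l1 (0.0306) and Sco2 (0.0404). Dysf was at 0.0905 and 0.0377 FPKM in the controls against 0.631 and 0.520 in the knockouts. It passed the filter of 0.5 FPKM only in the knockouts. At such levels the pseudocount of 1 shrinks the difference, so Dysf and Xbp1 did not change alike in FPKM. With only 4 libraries such distances describe the values and nothing more.

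Another 45 genes had an exact ERSE or ERSE-II match in a RefSeq promoter, and 23 of these were tested. This set was drawn up after results were seen. In it 1 gene was called higher (Lgalsl) and 1 lower (Alg12), the median log2 fold change being -0.06, against 8.99% and 25.4% called among all tested genes. With median scaling 4 were called higher and 0 lower, beside 14.1% and 11.5% of all tested genes.

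The tissue carried keratinocyte markers at high level in every library (8 genes summing to 24689 to 28619 FPKM), with Krt14 called higher and Krt1 and Lor called lower in the knockouts. The Krt1 call (log2 fold change -0.51, limma adjusted p = 0.0401) was lost with median scaling (-0.33, adjusted p = 0.148). Krt1 had the highest mean FPKM of all tested genes. Quantile normalization gives equal ranks equal values and set its difference to 0, so it cannot test this call. Krt5 and Krt10 were called lower with quantile normalization (-1.16 and -0.71, limma adjusted p = 0.000213 and 0.00190), but not as deposited or with median scaling. Markers of endothelium, neutrophils and adipocytes summed to under 1 FPKM in each library. The 5 leukocyte markers summed to 20.3 and 22.1 FPKM in the controls against 14.9 and 12.2 in the knockouts, with Ptprc and Csf1r called lower. The 4 melanocyte markers summed to 45.3 and 51.8 FPKM in the controls against 48.1 and 60.9 in the knockouts, with Tyrp1 called higher. Dct and Pmel overlapped between the genotypes and were not called, and the mean of Pmel was lower in the knockouts. Plasma cells, which depend on XBP1, left little trace, with Jchain under 0.1 FPKM and Mzb1 under 0.5 FPKM in every library. Ighm was at 0.765 and 1.41 FPKM in the controls against 0.488 and 0.276 in the knockouts. The means of Jchain, Mzb1 and Ighm were each lower in the knockouts, and none of them was tested. The plasma cell list summed to 118 and 121 FPKM in the controls against 220 and 184 in the knockouts. Nearly all of this sum came from Sdc1, which keratinocytes also express. What part these cell types have in the values of the 10 members was not tested.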

How the data were processed

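Total RNA from P0 epidermis was sequenced at BGI Americas, and the authors had the reads processed with the Astrocyte RNASeq workflow and deposited 1 table per library. The submitters' processing notes name GRCm38, and the aligner, quantifier and strandedness are not given in the sources used here. The FPKM values deposited by the authors adjust each gene for its length and each library for its size, the deposited TPM values sum to the same total in each library, and the deposited coverage signal is the mean read depth per base. Since the analysis held no counts, intervals for counting error are not given, and the number of pups limits the precision.

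FPKM was summed per identifier. Protein-coding genes (GENCODE M21, joined on unversioned identifiers, 54723 of 54752 matched) with FPKM above 0.5 in at least 1 library, the filter the study used, were tested with limma 3.58.1 (R 4.3.3) after a log2(FPKM + 1) transformation (eBayes with a trend, two-sided, Benjamini-Hochberg over 13609 genes). The fit was tested on simulated data with added changes larger than that of any member, so that test does not show how often changes of their size are called. Fold changes on this scale understate those of genes with low FPKM. P-values set a difference against a variance that limma moderates towards a trend over all tested genes. They therefore do not measure 1 gene's own spread between these pups alone. Where a symbol had more than 1 identifier, the one with the higher mean FPKM was used. Shared 75-base stretches and exon overlaps were counted on GENCODE M21.

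The named genes are the members, Skiv2l, Eif2ak3, Atf4 and Ddit3, up to 3 called genes with the largest fold change per pathway list, the cell type markers, and the 3 genes nearest Hspa5 and Xbp1. Mbtps2, Ern2, Hgsnat and Chac1 were added after their values were seen, as were the pairs and promoter motifs. Members and lists were chosen with earlier results of these data known. The 13 alternatives were TPM in place of FPKM, 2 other scalings (median and quantile), a pseudocount of 0.1, a stricter filter (above 1 FPKM in 2 samples), no filter, all annotated genes, no eBayes trend, a block for the replicate number, and the omission of each library.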

Additional observations from a re-analysis of the deposited data

How the results depend on the processing

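Fold changes of Ern1, Xbp1, Atf6, Hspa5, Dnajb9, Herpud1, Sdf2l1 and Pdia4 kept their direction in all 13 alternatives, while calls moved with the scaling, the filter and the controls. Median scaling gave 1925 genes higher and 1568 lower in place of 1223 and 3455, quantile normalization 1683 and 1917, and no filter 475 and 927. With median scaling 5 members were higher and 0 lower, and in the lists 2 and 0 for the IRE1 machinery, 1 higher for the ATF6 machinery, 5 and 0 for chaperones, 3 higher for ER-associated degradation and 6 and 1 for translocation and transport. With quantile normalization 0 members were lower, with 1 higher for the ATF6 machinery, 5 and 0 for chaperones, 2 higher for degradation and 5 and 1 for translocation. With no filter 0 members were called by limma (4 higher and 1 lower at an unadjusted p under 0.05), with 1 and 0 for chaperones, 0 higher for degradation, 0 and 0 for translocation and 1 higher for the PERK arm. The ATF6 machinery had 1 higher with the stricter filter and with a pseudocount of 0.1, degradation had 2 higher with the stricter filter and 1 lower with TPM, and chaperones had 1 higher among all annotated genes.

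Leaving out 1 library gave 497 to 1146 genes higher and 805 to 3135 lower, 0 to 4 members higher and 0 to 1 lower. For the lists, higher and lower, it gave 0 to 1 and 0 to 1 for the IRE1 machinery, 0 to 1 and 0 to 4 for the ATF6 machinery, 0 to 2 and 0 to 2 for chaperones, 0 to 1 and 0 to 1 for degradation, 0 to 2 and 0 to 2 for translocation, 0 to 0 and 2 to 3 for the mRNAs cut by IRE1, and 2 to 4 and 0 to 1 for the PERK arm. The low ends came mostly without a Skiv2l ctl library.

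The log2 fold change of Hsp90b1 was 0.0006 with median scaling. That of Creld2 was 0.0991 with median scaling and 0.1108 with quantile normalization, and ran from -0.2419 to 0.0655 when 1 library was left out. That of Eif2ak3 was 0.137 and 0.1446, and ran from -0.1114 to 0.0109. The cause of these changes was not tested.

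The labels tie no replicate number to a litter, and same-numbered samples did not deviate together (correlation -0.077 over 13609 genes). With the replicate number as a block 1264 genes were higher and 3393 lower, 4 members were higher and 1 lower (Dnajb9 passed, limma adjusted p = 0.00925), and the ATF6 machinery had 1 higher.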
